A study of Homo sapiens with 18 samples.

Results

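DDIT4, DDIT4L, TXNIP, ARRDC3, ARRDC4, MLXIP and MLXIPL form a set of 7 genes around nutrient and energy sensing. They were taken by symbol from a table of 61806 Ensembl gene identifiers, and all 7 were found, each under 1 identifier. All 7 were also among the 18537 genes that reached 1 TPM (the deposited unit, a transcript's length-scaled share of its library) in at least 3 libraries. DDIT4L passed only through the LoVo empty-vector libraries, where it was high, so its comparisons with that group are given as values without a test. The genes were selected on their TPM differences between alpelisib-treated and untreated LIN28B cells, so their values under the drug are a description, without a test. Other comparisons of these 7 genes that use LIN28B libraries also draw on the values used for the selection. Their p-values do not allow for it.

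The RNA came from LoVo and DLD-1, 2 lines of human colorectal cancer cells grown in DMEM with serum. In each line the groups were cells overexpressing LIN28B and given 5 µM alpelisib, cells overexpressing LIN28B without the drug, and cells carrying an empty vector (EV). Each of the 6 groups held 3 libraries, 18 in all. LIN28B is an RNA-binding protein best known for holding back let-7 microRNAs. Alpelisib inhibits the alpha isoform of the lipid kinase PI3K. No EV cells received the drug, so its action was measured on a LIN28B background alone. The sources used here do not give the duration of treatment, the vehicle, the promoter driving LIN28B or the clonality of the lines. Since no label calls the replicates separate cultures, p-values reflect the spread among these libraries alone, and that spread may be technical.

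DDIT4, also called REDD1, restrains mTORC1 through the TSC1-TSC2 complex, and its relative DDIT4L is known for the same brake. MLXIP (MondoA) and MLXIPL (ChREBP) sense phosphorylated sugars, pair with MLX, and activate genes through paired E-box elements called carbohydrate response elements. TXNIP and ARRDC4 are classic targets of these factors. Both encode alpha-arrestins that lower glucose uptake by promoting removal of glucose transporters from the cell surface. PI3K acts upstream through AKT, which inhibits TSC2 and keeps FOXO transcription factors out of the nucleus.

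The LIN28B transgene followed its labels but varied with the drug. LIN28B averaged 154 ± 7.14 TPM in LoVo-labelled LIN28B cells with alpelisib, 687 ± 16.6 TPM in those without it and 4.15 ± 0.668 TPM in LoVo EV cells (SD, n = 3 each). It averaged 143 ± 5.68 TPM in DLD-1 LIN28B cells with alpelisib, 462 ± 46.3 TPM without it and 1.76 ± 0.853 TPM in DLD-1 EV cells (SD, n = 3 each). Every difference under alpelisib below therefore comes with a lower transgene level, whose part in it was not tested. Summed over 7 colorectal epithelial markers, expression was 7029 to 15188 TPM across libraries, against at most 14.3 TPM for 4 fibroblast, 2.14 TPM for 4 leukocyte and 1.53 TPM for 3 endothelial markers. Depth is unknown, since TPM keeps no record of it.

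The LoVo-labelled LIN28B libraries correlated more closely with the DLD-1 libraries than with those of LoVo EV. Across all genes kept, Pearson's r of log2(TPM + 1) between LoVo-labelled LIN28B and LoVo EV libraries was 0.8904 to 0.9176. With DLD-1 EV libraries it was 0.9613 to 0.9661, and with DLD-1 LIN28B libraries 0.9636 to 0.968. Which line these cells came from was not tested. The LoVo-labelled LIN28B libraries with alpelisib likewise correlated at 0.8989 to 0.9139 with LoVo EV and at 0.9534 to 0.9631 with their DLD-1 counterparts. These libraries are called LoVo-labelled throughout, and any difference between them and LoVo EV cannot be told apart from a difference between lines. LoVo EV also carried more mitochondrial transcripts, 14.5% to 24.0% of TPM per library, against 7.24% to 15.8% over the other 5 groups. The higher shares were in LoVo EV replicates 1 and 2.

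The promoter stretches shown here are those of the genes that were low under alpelisib, because they carry, or lack, the elements named above. They come from RefSeq (GRCh38.p14) and run 5′ to 3′ on the gene's strand. Those of TXNIP, ARRDC4 and DDIT4 leave out bases in annotated exons. Capitals mark motifs from a set chosen after the sequences were read. In TXNIP (chr1:145996601-145996829, minus strand) the capitals are GTAAACA, a forkhead core 124 bases before the start, and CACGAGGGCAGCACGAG, a carbohydrate-response-like pair of partial E-boxes 88 bases before it. In ARRDC4 (chr15:97960453-97960697, plus strand) they are the E-box CACGTG 210 bases before the start. In DDIT4 (chr10:72273674-72273919, plus strand) they are ACGTG, the core read by hypoxia-inducible factors, 125 bases before the start. In ARRDC3 the stretch lies at the second annotated start (chr5:91380108-91380137, minus strand), inside an exon of another annotated ARRDC3 transcript, and TGTTTAC is the forkhead core on the other strand, 29 bases before it.
TXNIP: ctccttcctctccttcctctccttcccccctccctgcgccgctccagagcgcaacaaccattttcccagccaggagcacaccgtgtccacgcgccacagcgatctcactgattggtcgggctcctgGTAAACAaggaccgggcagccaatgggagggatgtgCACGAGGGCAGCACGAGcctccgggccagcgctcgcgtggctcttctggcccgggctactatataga
ARRDC4: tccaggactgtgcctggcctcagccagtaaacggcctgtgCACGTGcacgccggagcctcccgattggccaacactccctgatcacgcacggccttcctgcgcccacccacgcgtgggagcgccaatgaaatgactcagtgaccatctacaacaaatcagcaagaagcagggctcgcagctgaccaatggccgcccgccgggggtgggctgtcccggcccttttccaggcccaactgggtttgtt
DDIT4: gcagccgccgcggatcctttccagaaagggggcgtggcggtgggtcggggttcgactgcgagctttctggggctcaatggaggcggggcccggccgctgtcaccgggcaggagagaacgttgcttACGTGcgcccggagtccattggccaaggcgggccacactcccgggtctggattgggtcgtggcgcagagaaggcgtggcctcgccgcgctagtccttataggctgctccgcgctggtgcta
ARRDC3: agcccggcactTGTTTACcacggcgcggcc

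How rare each motif is was counted over the 250 bases before all 35116 RefSeq starts, on both strands. The paired element, searched as 2 copies of CACGNG with 5 bases between them, was found before 16 starts, or 0.0456%, and TXNIP was the only one of the 7 genes to hold it. The forkhead core was found before 2.98% of starts, the E-box before 6.34% and ACGTG before 18.5%. ACGTG lies within CACGTG, so the ARRDC4 E-box is also a match to it on both strands. A second TXNIP start holds ACGTG as well. CCAAT, found before 32.0% of starts, occurred 3 times in ARRDC4, 2 times each in DDIT4 and TXNIP, and once each in ARRDC3 and MLXIP. DDIT4L and MLXIPL held none of the 5 motifs in these windows. The motifs were chosen after the sequences were read, so these shares do not show how unlikely a match was. The matches describe letters only.

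DDIT4 was the most abundant of the set by group mean in 5 of the 6 groups; in DLD-1 LIN28B cells with alpelisib TXNIP was higher, at 186 TPM against 96.2 TPM. Its level was 403, 553 and 367 TPM in LoVo-labelled LIN28B cells with alpelisib, against 3173, 2882 and 3258 TPM in those without it. In DLD-1 LIN28B cells it was 82.0, 109 and 97.3 TPM with alpelisib, against 1298, 960 and 1235 TPM without it. No treated library reached an untreated one under either line label. The ratio of mean TPM was 12.1-fold lower with alpelisib in DLD-1 and 7.04-fold lower under the LoVo label, and the log2 differences were -3.58 in DLD-1 and -2.83 under the LoVo label. Ordered by the size of the fall over 18537 genes, DDIT4 was number 3 in DLD-1 and number 7 under the LoVo label. By its level per length it stood at place 1255 of all genes in treated DLD-1 LIN28B cells and at place 132 in untreated ones.

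Counted over the set, the groups did not overlap for 4 of the 7 genes under the LoVo label, all lower with alpelisib: DDIT4, TXNIP, ARRDC3 and ARRDC4. In DLD-1 the same 4 genes were lower without overlap and MLXIPL was higher. Over all genes tested, 30.4% were lower and 19.7% higher without overlap under the LoVo label, and 31.6% lower and 15.6% higher in DLD-1. A fall of 1 or more on the log2 scale was met by 3.96% of genes under the LoVo label, among them DDIT4 and ARRDC3, and by 2.58% in DLD-1, among them all 4. The median log2 difference of the 7 genes was -1.05 in DLD-1 and -0.85 under the LoVo label, beside -0.09 and -0.06 over all genes. The genes were chosen with these responses known, so nothing is read from these counts. In bulk RNA, fewer cells of a kind and less RNA per cell cannot be told apart.

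**Figure D1:**
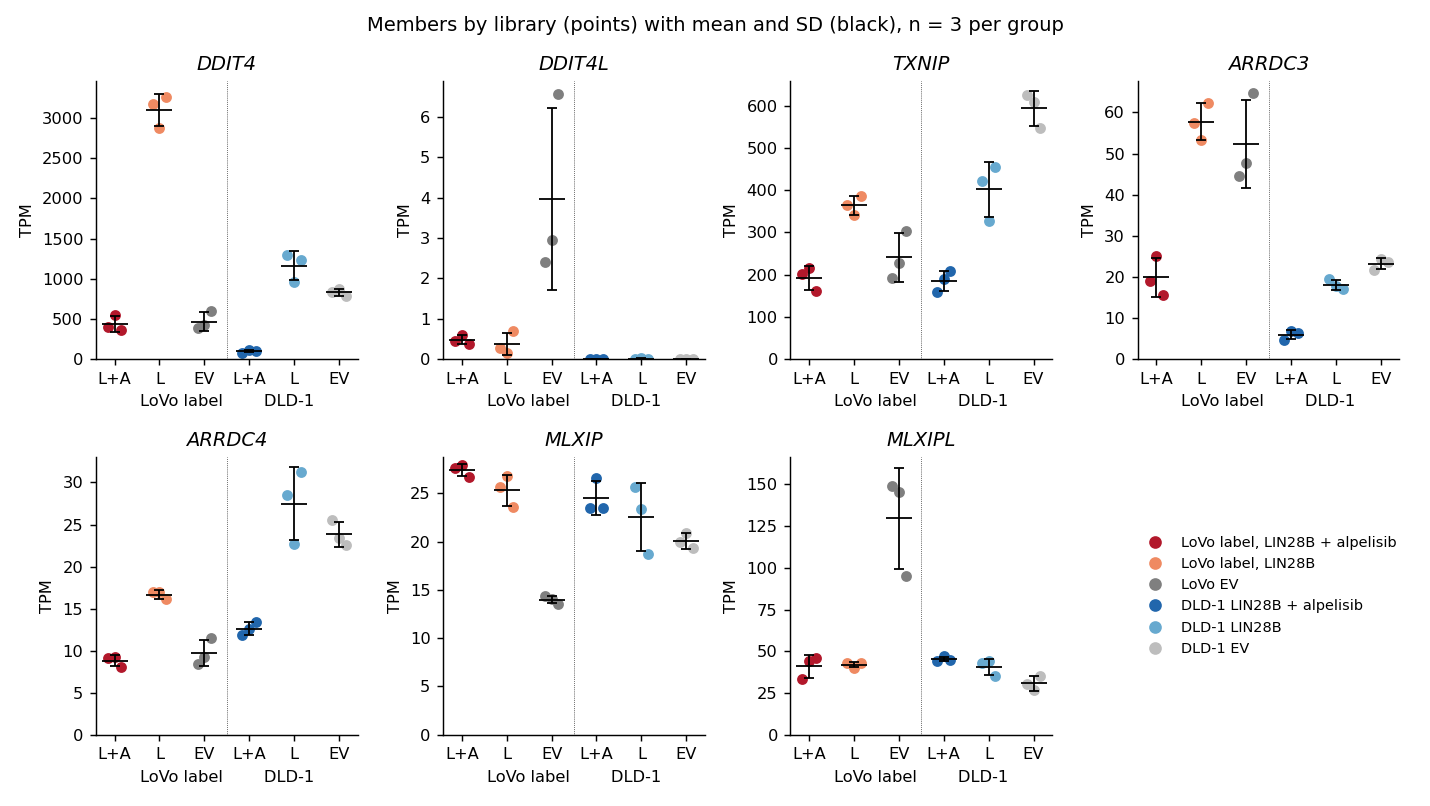
TPM of the 7 genes in each of the 18 libraries (points), with the group mean and SD in black, n = 3 per group, on linear axes that start at 0; L+A is LIN28B with alpelisib, L is LIN28B and EV is empty vector. DDIT4 stands at 2882 to 3258 TPM in LoVo-labelled LIN28B cells and averages 1164 TPM or less in each of the other 5 groups, and DDIT4L and MLXIPL are highest in LoVo EV cells.

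LIN28B cells and EV cells differed in DDIT4 under the LoVo label. The gene stood at 3173, 2882 and 3258 TPM in LoVo-labelled LIN28B cells, against 381, 419 and 603 TPM in LoVo EV cells, 6.64-fold higher. The log2 difference was 2.76 ± 0.17 (SE; limma, adjusted p = 1.58e-09), and the groups did not overlap. In DLD-1 it was 1298, 960 and 1235 TPM in LIN28B cells, against 841, 871 and 786 TPM in EV cells. That difference of 0.47 ± 0.17 did not pass the test (SE; limma, adjusted p = 0.192; 95% interval 0.11 to 0.84), although the groups did not overlap. The difference of LIN28B from EV cells was larger under the LoVo label than in DLD-1 by 2.28 ± 0.24 on the log2 scale (SE; limma, adjusted p = 2e-06).

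Between the line labels, DDIT4 was higher in LoVo-labelled than in DLD-1 LIN28B cells both with the drug and without it. With the drug, the means were 441 ± 98.5 TPM in LoVo-labelled and 96.2 ± 13.7 TPM in DLD-1 cells, a log2 difference of 2.17 ± 0.17 (SE; limma, adjusted p = 1.63e-07). Without it they were 3104 ± 197 TPM in LoVo-labelled and 1164 ± 180 TPM in DLD-1 cells, a log2 difference of 1.42 ± 0.17 (SE; limma, adjusted p = 2.34e-05). In EV cells the order was the opposite, with 468 ± 119 TPM in LoVo and 833 ± 43.2 TPM in DLD-1 and a log2 difference of -0.86 (limma, adjusted p = 0.000463). Without LoVo EV replicates 1 and 2 together, this last difference was -0.46 and did not pass (limma, adjusted p = 0.106). From high to low, the 6 group means ran LoVo-labelled LIN28B, DLD-1 LIN28B, DLD-1 EV, LoVo EV, LoVo-labelled LIN28B with alpelisib and DLD-1 LIN28B with alpelisib. LoVo EV and LoVo-labelled LIN28B cells with alpelisib overlapped in range.

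DDIT4L, the second mTORC1 brake, was low everywhere. It stood at 0.458, 0.595 and 0.384 TPM in LoVo-labelled LIN28B cells with alpelisib and at 0.285, 0.148 and 0.691 TPM in those without it, with overlapping ranges. LoVo EV cells held 2.40, 2.94 and 6.56 TPM, above every other library. In DLD-1 it was listed at 0 in 8 of 9 libraries, and at 0.0369 TPM in LIN28B replicate 2, so no fold is given there. LoVo-labelled LIN28B libraries thus lay below LoVo EV libraries in DDIT4L and above them in DDIT4, without overlap.

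The transcripts of both glucose-sensing factors stayed within a narrow range among LIN28B cells. MLXIP, encoding MondoA, was at 27.6, 27.9 and 26.7 TPM in LoVo-labelled LIN28B cells with alpelisib, against 25.6, 26.8 and 23.5 TPM in those without it. In DLD-1 it was at 23.5, 26.6 and 23.5 TPM with alpelisib, against 25.6, 23.3 and 18.7 TPM without it. The ranges overlapped under both line labels, with log2 differences of 0.11 under the LoVo label and 0.12 in DLD-1. LoVo EV cells were lowest, at 14.3, 14.1 and 13.6 TPM, and DLD-1 EV cells stood at 19.9, 20.9 and 19.3 TPM. MLXIP was higher in LoVo-labelled LIN28B than in LoVo EV cells by 0.81 ± 0.10 (SE; limma, adjusted p = 3.85e-06), and in DLD-1 the same contrast gave 0.15 (limma, adjusted p = 0.558; 95% interval -0.06 to 0.36). The difference of -0.49 between LoVo EV and DLD-1 EV cells (limma, adjusted p = 0.000571) was -0.20 after median-of-ratios scaling of the libraries (limma, adjusted p = 0.0886).

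MLXIPL, encoding ChREBP, was set apart by LoVo EV cells. Its level was 33.2, 44.1 and 45.9 TPM in LoVo-labelled LIN28B cells with alpelisib, 42.7, 40.3 and 43.0 TPM in those without it, and 149, 145 and 94.9 TPM in LoVo EV cells. In DLD-1 it was 44.3, 47.0 and 44.8 TPM with alpelisib, 42.8, 44.0 and 35.0 TPM in LIN28B cells, and 30.3, 26.7 and 35.3 TPM in EV cells. All 15 libraries outside LoVo EV thus lay at 47.0 TPM or less. The log2 difference between LIN28B and EV cells was -1.58 ± 0.16 under the LoVo label (SE; limma, adjusted p = 3.95e-07) and 0.39 ± 0.16 in DLD-1 (SE; limma, adjusted p = 0.254). LoVo EV cells were 4.22-fold higher than DLD-1 EV cells (log2 difference 2.02; limma, adjusted p = 2.41e-08). In DLD-1 LIN28B cells alpelisib went with a log2 difference of 0.16, and under the LoVo label with -0.04.

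TXNIP, the thioredoxin-binding alpha-arrestin, was lower with alpelisib under both line labels, where the treated libraries overlapped in level. It measured 201, 216 and 161 TPM in LoVo-labelled LIN28B cells with alpelisib, against 365, 342 and 387 TPM in those without it, 1.89-fold lower. In DLD-1 it measured 160, 189 and 208 TPM with alpelisib, against 422, 328 and 455 TPM without it, 2.17-fold lower. No treated library overlapped an untreated one. Treated LoVo-labelled and DLD-1 cells differed by 0.05 on the log2 scale (limma, adjusted p = 0.878; 95% interval -0.29 to 0.39), and untreated ones by -0.13 (limma, adjusted p = 0.679; 95% interval -0.47 to 0.21). In order of fall, TXNIP was number 317 of 18537 genes in DLD-1 and number 968 under the LoVo label.

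For LIN28B against EV cells, the TXNIP difference was positive under the LoVo label and negative in DLD-1. LIN28B cells stood above the 191, 227 and 304 TPM of LoVo EV cells under the LoVo label, by 0.62 ± 0.16 on the log2 scale (SE; limma, adjusted p = 0.00323). This call was lost after median-of-ratios scaling (0.26; limma, adjusted p = 0.12) and without LoVo EV replicates 1 and 2 together (0.26; limma, adjusted p = 0.309). In DLD-1, LIN28B cells had values below the 625, 609 and 547 TPM of EV cells, with a log2 difference of -0.57 ± 0.16 (SE; limma, adjusted p = 0.0717), which did not pass. It did pass after median-of-ratios scaling (-0.61; limma, adjusted p = 0.0201) and with mitochondrial transcripts left out (-0.57; limma, adjusted p = 0.0303). These differences under the LoVo label and in DLD-1 were 1.19 ± 0.23 apart (SE; limma, adjusted p = 0.000474). Under the LoVo label, an effect of LIN28B and a difference between lines cannot be told apart. DLD-1 EV cells held the most TXNIP of all groups, at 594 ± 41.1 TPM (SD, n = 3), and the log2 difference of LoVo EV from DLD-1 EV cells was -1.32 (limma, adjusted p = 3.09e-06).

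ARRDC4, the nearest relative of TXNIP in the set, was lower under alpelisib by a similar ratio. It stood at 9.19, 9.24 and 8.06 TPM in LoVo-labelled LIN28B cells with alpelisib, against 17.0, 16.9 and 16.1 TPM in those without it, 1.89-fold lower. In DLD-1 it stood at 11.9, 12.6 and 13.4 TPM with alpelisib, against 28.6, 22.7 and 31.2 TPM without it, 2.18-fold lower. The groups were separate under both line labels. LIN28B cells were above the 8.41, 9.26 and 11.5 TPM of LoVo EV cells by 0.73 ± 0.12 (SE; limma, adjusted p = 7.46e-05), and in DLD-1, where EV cells held 25.5, 23.4 and 22.6 TPM, the difference was 0.19 (limma, adjusted p = 0.544; 95% interval -0.07 to 0.45). ARRDC4 was lower in LoVo-labelled than in DLD-1 LIN28B cells, with log2 differences of -0.47 with the drug (limma, adjusted p = 0.0114) and -0.68 without it (limma, adjusted p = 0.00109). In EV cells LoVo was also lower than DLD-1 (-1.22; limma, adjusted p = 3.71e-07).

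ARRDC3, an alpha-arrestin known for directing integrin beta-4 and adrenergic receptors to degradation, had a larger fold under alpelisib than TXNIP and ARRDC4. It was at 18.9, 25.0 and 15.7 TPM in LoVo-labelled LIN28B cells with alpelisib, against 57.5, 53.4 and 62.4 TPM in those without it, 2.91-fold lower. In DLD-1 it was at 4.63, 6.86 and 6.36 TPM with alpelisib, against 19.4, 17.8 and 17.0 TPM without it, 3.04-fold lower. The groups did not overlap, and ARRDC3 was number 113 in order of fall under the LoVo label and number 89 in DLD-1. LIN28B against EV cells did not pass under either line label. The log2 difference was 0.16 under the LoVo label (limma, adjusted p = 0.439; 95% interval -0.19 to 0.50), where EV cells held 44.6, 47.7 and 64.6 TPM, and turned to -0.20 after median-of-ratios scaling. It was -0.34 in DLD-1 (limma, adjusted p = 0.356), where they held 21.7, 24.3 and 23.6 TPM.

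ARRDC3 differed between the line labels in all 3 conditions. LoVo-labelled cells were above DLD-1 cells by 1.58 ± 0.16 with LIN28B and alpelisib (SE; limma, adjusted p = 3.47e-06) and by 1.62 ± 0.16 with LIN28B alone (SE; limma, adjusted p = 3.41e-06). In EV cells the difference was 1.12 ± 0.16 (SE; limma, adjusted p = 2.29e-05). Its ranges in LoVo-labelled LIN28B and LoVo EV cells overlapped, at means of 57.8 ± 4.49 and 52.3 ± 10.8 TPM, and both lay above the 18.1 ± 1.21 TPM of DLD-1 LIN28B cells (SD, n = 3 each).

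Taking each comparison over the whole set, 5 of the 6 genes other than DDIT4L passed the test for LIN28B against EV under the LoVo label, 4 higher and 1 lower. Of all genes, 56.8% passed there, 40.3% higher and 16.5% lower. None of the same 6 genes passed in DLD-1, where 2.53% of all genes passed, 1.21% higher and 1.32% lower. DDIT4L is left out, since it stood at 0.0369 TPM or less in the DLD-1 libraries, too low for its test to decide. DDIT4 was higher and TXNIP and ARRDC3 lower there without overlap of the groups, beside 12.9% of all genes higher and 9.89% lower. The difference between LIN28B and EV cells was not the same under the LoVo label as in DLD-1 for 5 of these 6 genes. It was higher under the LoVo label for 4 and lower for 1, beside 42.7% of all genes, 30.4% higher and 12.4% lower. Under the LoVo label, an effect of LIN28B and a difference between lines cannot be told apart. All 6 differed between LoVo EV and DLD-1 EV cells, 2 higher and 4 lower in LoVo, beside 55.5% of all genes, 17.3% higher and 38.2% lower. Between LoVo-labelled and DLD-1 LIN28B cells DDIT4 and ARRDC3 were higher and ARRDC4 lower, beside 14% of all genes, 7.96% higher and 6.02% lower. The same 3 genes differed in the same directions under alpelisib, beside 19.1% of all genes, 11.5% higher and 7.58% lower. Shares of the set near these backgrounds are not results about it. LIN28B against EV and alpelisib against untreated share the untreated LIN28B libraries, so their values are given only side by side. The selection of the genes used the LIN28B libraries, which the p-values of comparisons with LIN28B cells do not allow for.

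**Figure D2:**
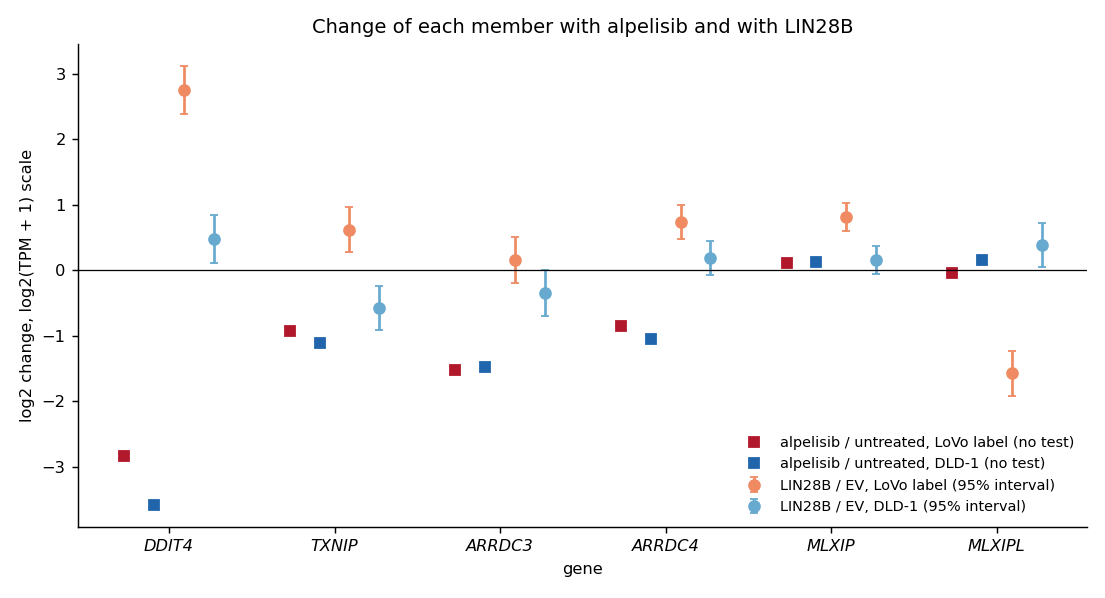
Change of 6 of the genes on the log2(TPM + 1) scale with alpelisib over untreated LIN28B cells (squares, no test) and with LIN28B over EV (circles, with 95% limma intervals), under the LoVo label and in DLD-1; DDIT4L is not drawn, since it was listed at 0 in 8 of 9 DLD-1 libraries and passed the filter only through LoVo EV. DDIT4, TXNIP, ARRDC3 and ARRDC4 lie below 0 with alpelisib under both line labels, from -0.85 to -3.58, whereas MLXIP and MLXIPL lie between -0.04 and 0.16.

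Among themselves, the 7 genes differed widely in how closely they ran together over the 18 libraries. TXNIP and ARRDC4 had a Pearson's r of 0.861 and a Spearman's rho of 0.829 on log2(TPM + 1). DDIT4 and ARRDC3 had an r of 0.760 and a rho of 0.589, and ARRDC3 and ARRDC4 an r of -0.03. DDIT4 had an r of 0.676 and a rho of 0.773 with TXNIP, and an r of 0.494 and a rho of 0.645 with ARRDC4. DDIT4L and MLXIPL had an r of 0.834, beside a rho of 0.504, and DDIT4L and ARRDC3 an r of 0.600 and a rho of 0.665. The libraries share their group and line, so these values describe the layout of 6 groups and carry no p.

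**Figure D3:**
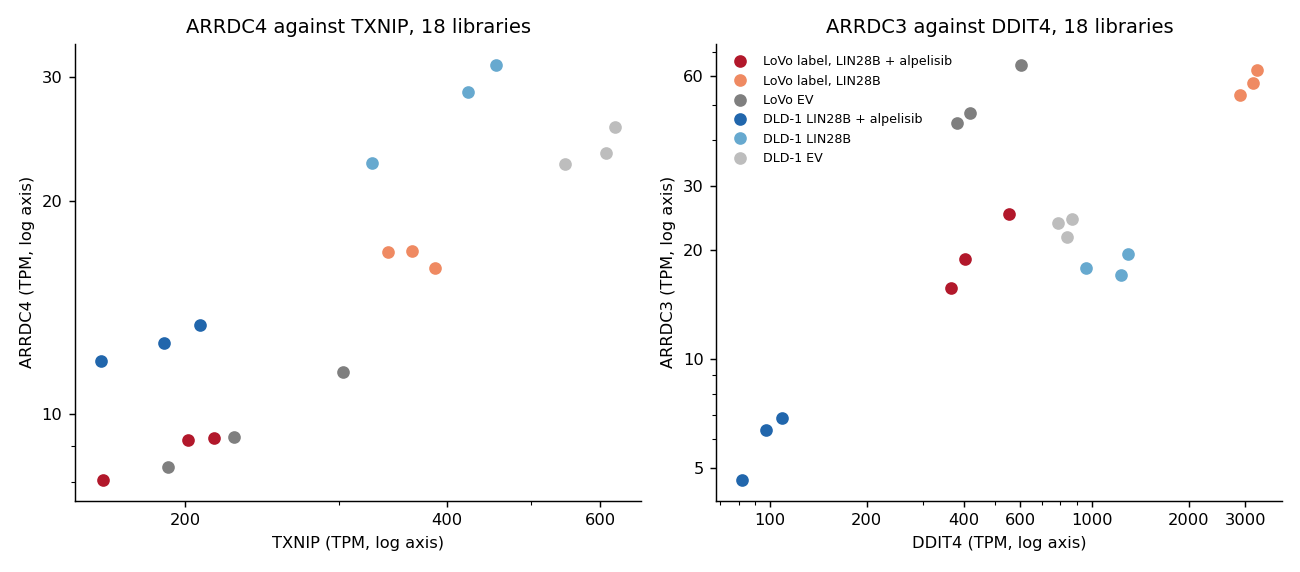
ARRDC4 against TXNIP and ARRDC3 against DDIT4 in the 18 libraries, TPM on log axes, coloured by group. TXNIP and ARRDC4 are both low in the 6 alpelisib libraries and in LoVo EV, and DDIT4 and ARRDC3 are both lowest in DLD-1 LIN28B cells with alpelisib, where ARRDC3 is 4.63 to 6.86 TPM.

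The genes most like DDIT4 over the 18 libraries, by Pearson's r of log2(TPM + 1), were HILPDA (0.979), MAP2K1 (0.979), ALDOA (0.976), NFIL3 (0.975) and FUT11 (0.968). Those most like TXNIP were STN1 (0.980), BAIAP2L1 (0.962), CNN3 (0.962), SDC4 (0.954) and PTPRJ (0.953). Those most like ARRDC4 were GPR180 (0.976), KIF21B (0.969), CDS1 (0.968), ATP2B1 (0.966) and RBMXL1 (0.962). No gene appeared in 2 of these lists of 5. HILPDA, which encodes a lipid-droplet protein, averaged 607 TPM in LoVo-labelled LIN28B cells, its highest group, and 28.6 TPM in DLD-1 LIN28B cells with alpelisib, its lowest.

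The neighbouring pathway genes were read from 7 lists in the fit over all genes, where 39.7% of genes passed under alpelisib with the LoVo label (15.1% higher, 24.6% lower) and 31% in DLD-1 (9.05% higher, 21.9% lower). The lists were chosen with earlier results of these data known. Counts, medians and p-values of list genes do not allow for that choice, here and below, so they describe the listed genes only. Known inducers of DDIT4 were lower or did not pass: 6 of 11 fell under the LoVo label and 7 of 11 in DLD-1, and none rose. Their median log2 difference was -0.44 under the LoVo label and -0.56 in DLD-1, beside -0.06 and -0.09 over all genes. DDIT3, a stress factor also called CHOP, averaged 14.9 ± 3.33 TPM with alpelisib and 51.8 ± 13.8 TPM without it in DLD-1 (SD, n = 3 each), a log2 difference of -1.71 (limma, adjusted p = 1.34e-05). CEBPB fell by 1.14 in DLD-1 (limma, adjusted p = 8.4e-07) and by 0.84 under the LoVo label (limma, adjusted p = 6.84e-06). HIF1A, the oxygen-regulated subunit of hypoxia-inducible factor 1, fell by 0.92 in DLD-1 (limma, adjusted p = 0.000219) and by 0.91 under the LoVo label (limma, adjusted p = 0.000107).

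The TSC-mTOR arm on which DDIT4 acts had a median nearer that of all genes. With the LoVo label 2 of 13 genes rose and 5 fell under alpelisib, with a median of -0.20, and in DLD-1 none rose and 4 fell, with a median of -0.13. In DLD-1 the count was 2 higher and 2 lower after median-of-ratios scaling. TBC1D7, the third subunit of the TSC complex, fell by 0.67 under the LoVo label (limma, adjusted p = 7.07e-05) and by 0.50 in DLD-1 (limma, adjusted p = 0.00133). MTOR itself fell by 0.49 under the LoVo label (limma, adjusted p = 0.00194). In DLD-1 MTOR did not fall, with means of 24.5 ± 1.56 TPM with alpelisib and 23.1 ± 2.31 TPM without it (SD, n = 3 each).

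Among other brakes on mTORC1 and subunits of the energy sensor AMPK, 1 of 13 rose and 5 fell under the LoVo label, and none rose and 6 fell in DLD-1. TRIB3, a pseudokinase that binds AKT, averaged 77.2 ± 7.55 TPM with alpelisib and 183 ± 14.8 TPM without it under the LoVo label. In DLD-1 it averaged 69.2 ± 4.77 TPM with the drug and 161 ± 10.4 TPM without it (SD, n = 3 each). Its log2 differences were -1.24 under the LoVo label (limma, adjusted p = 2.96e-07) and -1.20 in DLD-1 (limma, adjusted p = 1.06e-06). SESN2, a leucine sensor upstream of mTORC1, fell by 1.39 in DLD-1 (limma, adjusted p = 0.000106). PRKAB1, a beta subunit of AMPK, rose by 0.97 under the LoVo label (limma, adjusted p = 7.73e-05), while PRKAB2, the other beta subunit, fell by 0.91 there (limma, adjusted p = 0.00305) and by 1.23 in DLD-1 (limma, adjusted p = 0.00061).

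Around MondoA and ChREBP, the wider MLX-MAX network moved in both directions under the LoVo label, while the glucose-responsive genes were mostly lower. In the MLX-MAX network 2 of 11 rose and 5 fell under the LoVo label, and none rose and 3 fell in DLD-1, where median-of-ratios scaling gave 3 higher and 2 lower. MLX, the obligate partner of both factors, differed by -0.45 under the LoVo label (limma, adjusted p = 0.000833) and by -0.34 in DLD-1 (limma, adjusted p = 0.00802), the last not passing after that scaling (-0.20; limma, adjusted p = 0.0703). MXD1, which competes for the partner MAX, fell by 0.86 under the LoVo label (limma, adjusted p = 3.41e-05) and by 0.65 in DLD-1 (limma, adjusted p = 0.000759).

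Of the glucose-responsive targets other than TXNIP and ARRDC4, 11 of 13 fell under the LoVo label and 9 of 13 in DLD-1, and none rose. The medians were -1.14 under the LoVo label and -0.72 in DLD-1. SCD, the stearoyl-CoA desaturase, averaged 85.2 ± 20.3 TPM with alpelisib and 646 ± 39.2 TPM without it under the LoVo label (SD, n = 3 each), a difference of -2.93 (limma, adjusted p = 7.91e-09). BHLHE40, a transcriptional repressor, averaged 15.2 ± 2.05 TPM with alpelisib and 103 ± 2.60 TPM without it in DLD-1, a difference of -2.70 (limma, adjusted p = 3.06e-09). HK2, which phosphorylates glucose on its entry into the cell, fell by 1.55 under the LoVo label (limma, adjusted p = 1.83e-07) and by 1.24 in DLD-1 (limma, adjusted p = 3.89e-06). Several of these genes also respond to other factors, so the list is not specific to MondoA or ChREBP.

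The relatives and working partners of the arrestins did not move as 1 group. Of 12 arrestin relatives, thioredoxins and NEDD4-family ubiquitin ligases, 2 rose and 4 fell under the LoVo label, and 3 rose and 4 fell in DLD-1. ARRDC1, another alpha-arrestin, was higher by 0.66 under the LoVo label (limma, adjusted p = 7.54e-05) and by 0.54 in DLD-1 (limma, adjusted p = 0.000758), the opposite direction to ARRDC3, TXNIP and ARRDC4. TXNRD1, the reductase that recharges thioredoxin, fell by 1.74 under the LoVo label (limma, adjusted p = 6.08e-06) and by 1.37 in DLD-1 (limma, adjusted p = 0.000136). ITCH, a ligase that binds alpha-arrestins, fell by 0.69 under the LoVo label (limma, adjusted p = 0.000309) and by 0.60 in DLD-1 (limma, adjusted p = 0.00159).

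The 3 measured cargo genes included both glucose transporters. SLC2A3, which encodes GLUT3, averaged 9.10 ± 1.58 TPM with alpelisib and 29.3 ± 4.41 TPM without it under the LoVo label. The DLD-1 means were 9.70 ± 0.603 TPM with the drug and 48.6 ± 4.45 TPM without it (SD, n = 3 each). The log2 differences were -1.59 under the LoVo label (limma, adjusted p = 1.09e-06) and -2.21 in DLD-1 (limma, adjusted p = 1e-07). SLC2A1, which encodes GLUT1, fell by 1.08 under the LoVo label (limma, adjusted p = 0.00151) and by 1.55 in DLD-1 (limma, adjusted p = 0.00018). ITGB4, which encodes the integrin beta-4 named above, rose by 1.02 under the LoVo label (limma, adjusted p = 5.37e-06) and by 0.45 in DLD-1 (limma, adjusted p = 0.00723). These are RNA levels, and a link to the lower ARRDC3 was not tested.

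**Figure D4:**
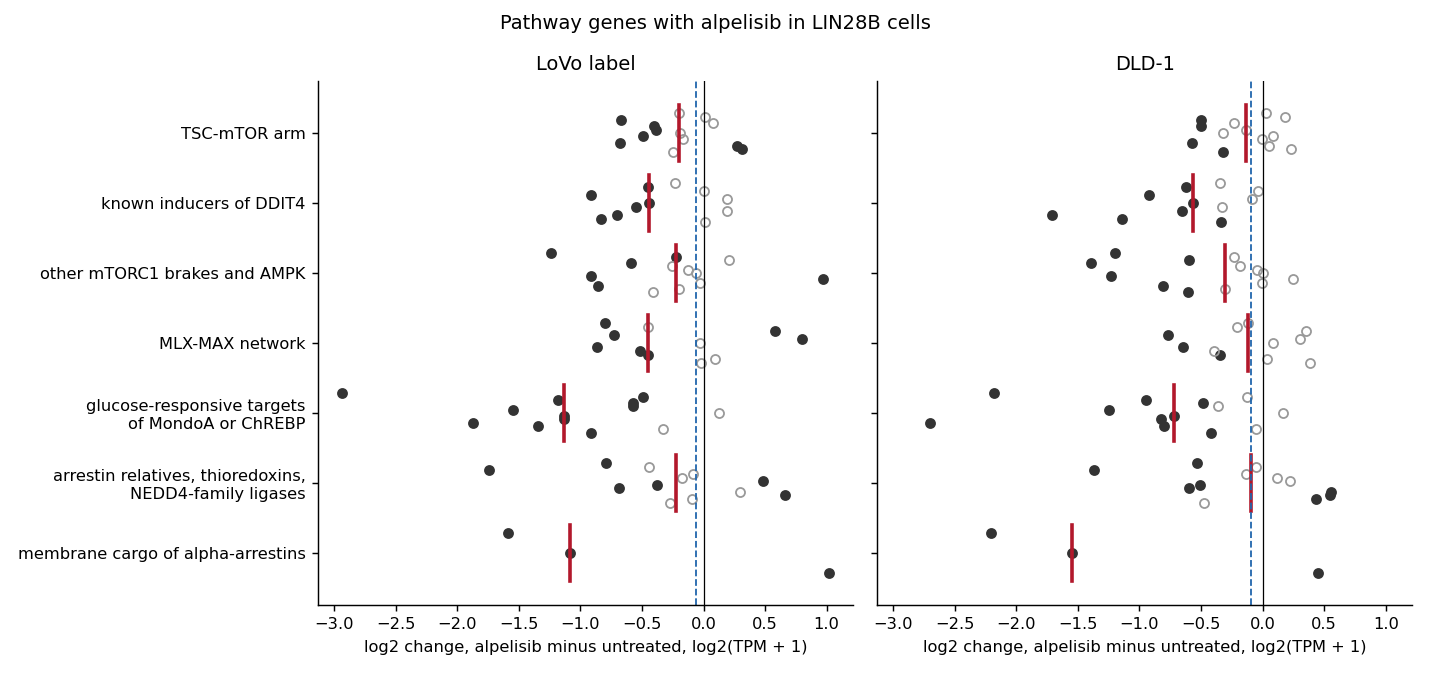
Log2 change with alpelisib of each tested gene of the 7 pathway lists in LIN28B cells, under the LoVo label and in DLD-1; filled points passed the limma test at an adjusted p under 0.05, open points did not, the red bar is the list's median and the blue dashed line the median of all genes. The glucose-responsive targets have medians of -1.14 and -0.72, beside -0.06 and -0.09 for all genes. The lists were chosen with earlier results of these data known, so the medians are a description.

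For LIN28B against EV, 2 of 76 tested list genes passed in DLD-1, where 2.53% of all genes did. Under the LoVo label 57 of the same 76 passed, 49 higher and 8 lower, beside 56.8% of all genes, 40.3% higher and 16.5% lower. The 57 include NR3C1 and PRKAA2, both kept by the filter only through LoVo EV, where they were high, so nothing is read from their calls. In DLD-1, DDIT3 (0.86; limma, adjusted p = 0.0242) and SESN2 (0.80; limma, adjusted p = 0.038) passed, and no other list gene did. DDIT3 no longer passed without DLD-1 LIN28B replicate 1 or 3 or EV replicate 1 or 2 (limma, adjusted p = 0.0714 to 0.119). SESN2 no longer passed without LIN28B replicate 1 or 3 or any 1 of the EV replicates (limma, adjusted p = 0.0953 to 0.176). Neither passed with only the compared groups fitted. Under the LoVo label, 10 of 13 glucose-responsive targets rose and none fell, with a median of 0.84 beside 0.26 over all genes, of which 40.3% passed as higher, and after median-of-ratios scaling the count was again 10 and 0. TRIB3 averaged 183 ± 14.8 TPM in LoVo-labelled LIN28B cells and 17.9 ± 2.71 TPM in LoVo EV cells, a difference of 3.29 (limma, adjusted p = 7.91e-13). HK2 averaged 159 ± 13.5 TPM in LoVo-labelled LIN28B cells and 43.8 ± 6.40 TPM in LoVo EV cells (limma, adjusted p = 2.65e-09). The TRIB3 level in DLD-1 EV cells, 169 ± 3.52 TPM, lay near that of the LoVo-labelled LIN28B cells (SD, n = 3 each).

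The positions of the genes bear on how far their reads can be assigned. By RefSeq on GRCh38.p14, DDIT4 (ENSG00000168209) lies at chr10:72273924-72276036 on the plus strand, TXNIP (ENSG00000265972) at chr1:145992435-145996579 on the minus strand, ARRDC3 (ENSG00000113369) at chr5:91368631-91383317 on the minus strand and ARRDC4 (ENSG00000140450) at chr15:97960703-97973833 on the plus strand. MLXIP (ENSG00000175727) lies at chr12:122078756-122147344 on the plus strand, MLXIPL (ENSG00000009950) at chr7:73593202-73647907 on the minus strand and DDIT4L (ENSG00000145358) at chr4:100185870-100190468 on the minus strand. In GENCODE 29, DDIT4, DDIT4L and ARRDC3 overlap antisense genes, and the sources used here do not say whether counting used strand, so reads of such pairs cannot be told apart. ARRDC3-AS1 was listed at 0.730 to 2.83 TPM, below ARRDC3 in every library. AC097460.1, antisense to DDIT4L, was listed at 0.0533 to 0.798 TPM, a range that overlaps that of DDIT4L, at 0 to 0.691 TPM, in the LIN28B cells. AC005089.1, inside an intron of MLXIPL, was listed at 0.276 to 4.79 TPM and, like MLXIPL, was highest in LoVo EV cells.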

How the data were processed

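The authors deposited 1 TPM value for each gene in each library, as the file headers show. For the tools, the submitters' processing notes list hg38, STAR 2.7.10, Picard, HTSeq and DESeq2, with no role or order attached. The sources used here do not give the annotation release, gene lengths or use of strand. TPM fixes each library's total, so a large change in abundant transcripts shifts other values the opposite way, and depth is unknown, so no counting interval or count model was used. Of 61806 identifiers, 61757 matched a symbol.

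Genes with at least 1 TPM in 3 of 18 libraries were kept (18537, of which 2764 were listed at 0 in at least 1 library). Values were tested as log2(TPM + 1), which understates changes of low genes, with limma 3.58.1 in R 4.3.3. The fit was 1 model of 6 groups with a mean-variance trend and 12 residual degrees of freedom, two-sided, adjusted by Benjamini-Hochberg over all genes kept, and called at an adjusted p under 0.05. Groups and replicate numbers came from the labels. DDIT4L, kept only through LoVo EV, was not tested against that group. The steps were tested on simulated data. The genes, lists and tests were chosen with earlier results of these data known. The text names all 7 genes and, from each list and comparison, up to 4 called genes with the smallest p, plus the genes needed to state a count of 5 or fewer. Likeness was ranked among genes with a mean of 2 TPM or more in at least 1 group, and the 5 highest are named.

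The alternatives were median-of-ratios scaling, rescaling without mitochondrial transcripts, a pseudocount of 0.1, no filter on low values, a fit of only the compared groups, the replicate number as a block, leaving out each library, and leaving out LoVo EV replicates 1 and 2 together. Promoter windows were RefSeq sequences of GRCh38.p14, and overlaps between genes came from GENCODE 29.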

Additional observations from a re-analysis of the deposited data

Results flagged for a closer look

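For 5 of the 6 genes tested the difference between LIN28B and EV cells was not the same under the LoVo label as in DLD-1, by a test of that difference (LoVo label minus DLD-1, log2 scale); 42.7% of all genes passed the same test. DDIT4 differed by 2.28 (limma, adjusted p = 2e-06), with 3104 TPM in LIN28B and 468 TPM in EV cells under the LoVo label and 1164 and 833 TPM in DLD-1. TXNIP differed by 1.19 (limma, adjusted p = 0.000474), with 365 TPM in LIN28B and 241 TPM in EV cells under the LoVo label and 402 and 594 TPM in DLD-1. MLXIPL differed by -1.97 (limma, adjusted p = 4.2e-06), with 42.0 TPM in LIN28B and 130 TPM in EV cells under the LoVo label. DDIT4L was not tested, since it passed the filter only through LoVo EV. MLXIP differed by 0.66 (limma, adjusted p = 0.00141), which did not pass after median-of-ratios scaling (0.35; limma, adjusted p = 0.0524).

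ARRDC4 differed by 0.54 (limma, adjusted p = 0.0175). It did not pass after median-of-ratios scaling (0.25; limma, adjusted p = 0.205), with mitochondrial transcripts left out (0.36; limma, adjusted p = 0.0699), without DLD-1 LIN28B replicate 2 (0.42; limma, adjusted p = 0.0528) or without LoVo EV replicates 1 and 2 together (0.32; limma, adjusted p = 0.229). ARRDC3 did not pass (0.50; limma, adjusted p = 0.0943), but passed without LoVo EV replicate 3 (0.66; limma, adjusted p = 0.0217). LoVo-labelled LIN28B libraries correlated more closely with DLD-1 than with LoVo EV libraries, so an effect of LIN28B and a difference between lines cannot be told apart in these values. The LIN28B libraries also served to select the genes, which these p-values do not allow for.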

How the results depend on the processing

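Over the alternatives run, 707 values of the 7 genes kept their side of the threshold or stayed within the replicate SD, 9 no longer passed, 7 newly passed and 12 without a test moved by more than 1 SD, 9 of them for DDIT4L. No value that passed changed sign, but 10 values of 4 differences that were not called or not tested did: ARRDC3 for LIN28B against EV under the LoVo label (to -0.20), MLXIPL under alpelisib with the LoVo label (to 0.10), and MLXIPL (to -0.05) and TXNIP (to -0.05) between LoVo-labelled and DLD-1 LIN28B cells, TXNIP under alpelisib and MLXIPL without it. The 469 genes called for LIN28B against EV in DLD-1 became 290 with no filter on low values, 183 with only the compared groups fitted, 170 with the replicate block, and 185 to 229 with 1 library left out; the cause was not tested. Median-of-ratios scaling gave 244 higher and 383 lower there. The 10294 genes called between LoVo EV and DLD-1 EV became 6696 without LoVo EV replicates 1 and 2 together, a setting with fewer samples. The other counts stayed within 1.5 times. Median-of-ratios scaling moved the alpelisib differences by 0.15 in DLD-1 and 0.12 under the LoVo label, LIN28B against EV under the LoVo label by -0.36 and LoVo EV against DLD-1 EV by 0.30. Under it the split for alpelisib was 2620 higher and 2886 lower in DLD-1 (1677 and 4067 as deposited), and 3588 and 3746 under the LoVo label (2807 and 4557). For LIN28B against EV under the LoVo label it was 4882 and 5083 (7463 and 3067), and for LoVo EV against DLD-1 EV 5018 and 4837 (3212 and 7082). Under it the alpelisib differences were 0.31 for MLXIPL in DLD-1, and -0.74 for ARRDC4 and 0.23 for MLXIP under the LoVo label. With a pseudocount of 0.1, DDIT4L was higher in LoVo-labelled than in DLD-1 LIN28B cells, by 2.52 with alpelisib (limma, adjusted p = 0.00422) and by 1.93 without it (limma, adjusted p = 0.0289). In the main fit the values were 0.56 with alpelisib (limma, adjusted p = 0.116) and 0.42 without it (limma, adjusted p = 0.284), neither passing. DDIT4L passed the filter only through LoVo EV and stayed under 1 TPM in all the LIN28B libraries. It was at or near 0 in the DLD-1 libraries, so these sizes and p-values depend on the pseudocount, and nothing is read from them. Samples with the same replicate number did not deviate together (r of -0.302 to 0.119 over 18 pairs, against -0.175 to 0.236 over 36 pairs with other numbers), so the numbers do not pair the samples. The replicate block gave 10063, 4715, 6644, 9754, 1940, 2870 and 7203 genes in the other 7 comparisons.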
